A study of Mus musculus with 23 samples.

Results

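Spi1, Irf8, Runx1, Mef2a, Mef2c, Mef2d, Sall1, Cebpa and Cebpb encode 9 transcription factors of the microglial lineage, and their loci were followed here through open chromatin in adult mouse microglia. A peak was assigned to a gene when its summit lay in the gene body or within 50 kb of it in the GRCm38 coordinates of the files, and to the nearest of the 9 genes where several qualified. These loci held 151 of the 49124 regions compared across the series, and 3257 of the 1054137 deposited peaks. Runx1 had 31 regions, Irf8 21, Mef2c 18, Mef2a 16, Cebpa 15, Cebpb 15, Spi1 14, Mef2d 14 and Sall1 7.

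ATAC-seq cuts DNA with a transposase where chromatin is open, so that each peak marks an accessible stretch of DNA. The study held 23 libraries of striatal microglia from male mice aged 8 to 10 weeks. MIA_LPS (n = 5) were mice whose dams underwent maternal immune activation during pregnancy, given an intraperitoneal injection of lipopolysaccharide (LPS, a bacterial cell wall component) as adults, dosed at 4500 EU/g. MIA_SAL (n = 6) had the same prenatal history and received saline. CON_LPS (n = 7) and CON_SAL (n = 5) were control offspring given LPS at that dose and saline. Cells were collected 18 h after the injection and sorted as live, CD11b+, CD45-low and P2RY12+, at 10560 to 25000 cells a library, so that cells without P2RY12 on their surface were not sampled. No source used here names the strain or the agent given to the dams. Whether the libraries stem from different animals is not stated either, and the p-values therefore rest on spread between libraries that may be partly technical.

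PU.1, the product of Spi1, opens chromatin in myeloid cells together with C/EBP factors (Cebpa, Cebpb), Runx1 and the interferon regulatory factor Irf8. Mef2a, Mef2c and Mef2d are paralogs that bind MEF2 sites at many microglial enhancers, and Sall1 is a zinc finger repressor that keeps the microglial programme apart from that of other macrophages. LPS signals through the receptor TLR4, and C/EBPβ is known as a factor that LPS induces in macrophages.

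The deposited lists held 33949 to 68312 peaks, and the 33949 peaks of lowest p in each were compared. Regions are peak summits widened by 250 bases to each side, with a peak in at least 3 libraries, and are numbered along the chromosome at each gene (Irf8 8 is the eighth of Irf8). The strength of a peak is given as its rank percentile within its library's list by −log10 p, where 100 is the best peak and 0 stands for no peak. No read counts were used, so depth is unknown and a missing peak means one not called at that depth. Markers checked the sort: 6 to 9 of 10 microglia markers had a peak within 1 kb of a gene end in every library, against 0 to 3 of 9 neuron, 1 to 3 of 6 astrocyte, 1 to 2 of 8 oligodendrocyte, 1 to 3 of 6 endothelial and 0 to 1 of 6 lymphocyte markers. Of the microglia markers, Gpr34 had none in any library, and P2ry12, whose product was used in the sort, had one in 5 of 12 LPS and 8 of 11 saline libraries.

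Some markers of other cells moved with the treatment. Among 8 monocyte and neutrophil markers, S100a8 had a peak in 10 of 12 LPS libraries, against 0 of 11 saline libraries, and the other 7 (Ly6c2, Ccr2, Plac8, S100a9, Ly6g, Retnlg and Elane) had none in any library. Of the 7 markers of border-associated macrophages, a median of 3 had a peak in MIA_LPS, 1 in MIA_SAL, 2 in CON_LPS and 1 in CON_SAL. Within that list F13a1 had a peak in 10 LPS libraries and 0 saline libraries, Cbr2 in 11 and 8, Ms4a7 in 3 and 0, Mrc1 in 2 and 1, and Cd163, Lyve1 and Pf4 in none. Outside the myeloid lists, the lymphocyte marker Cd79a had a peak in 7 of 12 LPS and 1 of 11 saline libraries, and the other lymphocyte markers had none. The oligodendrocyte marker Mog had one in 1 of 12 LPS and 6 of 11 saline libraries. Of the other oligodendrocyte markers, Mbp had a peak in all 12 LPS and all 11 saline libraries, and the rest had none. In sorted bulk libraries, a different share of some cells and different chromatin within each cell cannot be told apart, and the part of these markers' cells in the LPS results below was not tested. In addition, 6 libraries with identity numbers 01 to 03 in the labels were left out as an alternative (MIA_LPS replicate 3, MIA_SAL replicates 3 and 4, CON_LPS replicates 3 and 7, CON_SAL replicate 3). Without them the LPS comparison over both offspring groups gave the same 12 higher and 5 lower counts at these loci as with all libraries. The labels do not explain the identity numbers, of which the 23 libraries hold 14: 8 numbers are held by more than 1 library, together 17 libraries, and 5 of them by LPS and saline libraries. If a number stands for a litter or an animal, these libraries are not independent.

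The sequences upstream of the starts show how unlike the promoters of 1 gene can be. Runx1 is transcribed from a distal promoter (region Runx1 23) and, inside the gene, from a proximal one (Runx1 12). These are shown with that of Irf8 because both genes gave the most gains after LPS. They also had the most regions tested. They are RefSeq sequences on GRCm38.p6, the 250 bases before each listed start, 5′ to 3′ on the strand of the gene, with each CpG dinucleotide in capitals.
Runx1 distal, chr16:92826075-92826324, minus strand: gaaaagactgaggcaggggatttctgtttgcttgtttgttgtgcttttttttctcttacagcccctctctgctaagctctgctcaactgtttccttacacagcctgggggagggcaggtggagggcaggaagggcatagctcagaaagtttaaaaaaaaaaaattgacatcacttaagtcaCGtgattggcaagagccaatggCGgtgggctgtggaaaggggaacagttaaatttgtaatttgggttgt
Runx1 proximal, chr16:92697330-92697579, minus strand: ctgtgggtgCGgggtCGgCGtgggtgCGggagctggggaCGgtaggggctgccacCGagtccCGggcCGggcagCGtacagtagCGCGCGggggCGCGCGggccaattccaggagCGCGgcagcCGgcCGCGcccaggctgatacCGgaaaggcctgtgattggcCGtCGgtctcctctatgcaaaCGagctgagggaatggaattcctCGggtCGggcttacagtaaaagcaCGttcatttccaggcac
Irf8, chr8:120736108-120736357, plus strand: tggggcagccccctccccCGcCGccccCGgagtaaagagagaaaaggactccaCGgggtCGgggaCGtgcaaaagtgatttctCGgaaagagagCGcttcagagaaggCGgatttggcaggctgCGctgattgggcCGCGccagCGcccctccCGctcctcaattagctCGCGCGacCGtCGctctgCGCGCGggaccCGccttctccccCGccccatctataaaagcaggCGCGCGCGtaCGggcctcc
The distal Runx1 promoter had 2 CpG and 45.6% G or C, against 27 CpG and 67.6% in the proximal one and 29 CpG and 67.2% at Irf8. The median of 32851 listed mouse promoters was 6 CpG and 52.4%. The other listed promoters of the members, apart from those of Mef2c, had 8 to 41 CpG.

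Motifs were searched on both strands of the same 250 bases in 14 listed promoters of 8 members and in all 32851 promoters. GAGGAAG, the PU.1 letters, was in 2 of the 14 and in 10.6% of all. TGANTCA (AP-1) was in 1 of the 14 and in 6.75% of all, at the third listed start of Mef2c. The C/EBP letters TTGCNNAA were in 0 of the 14 and in 9.56% of all, and the RUNX letters TGTGGTT in 0 and in 4.4%. MEF2 (CTA, any 4 bases, TAG) was in 0 of the 14 and in 3.2% of all, IRF (GAAA, any 2 bases, GAAA) in 0 and in 2.98%, and NF-kB (GGGA, any base, TT, any base, CC) in 0 and in 0.98%. Both PU.1 matches of the Mef2a promoter are in capitals below, 114 and 103 bases before the start, and do not overlap. The other match, at the second listed start of Mef2c, began 186 bases before it.
Mef2a, chr7:67372859-67373108, minus strand: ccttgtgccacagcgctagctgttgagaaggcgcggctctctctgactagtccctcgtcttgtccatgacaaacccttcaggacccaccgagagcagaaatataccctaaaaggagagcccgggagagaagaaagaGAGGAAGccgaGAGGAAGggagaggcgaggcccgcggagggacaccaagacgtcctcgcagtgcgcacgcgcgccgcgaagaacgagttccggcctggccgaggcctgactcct
A match is a description of letters and not of binding.

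After LPS, 12 member regions had a peak in more libraries and 5 in fewer, out of 63 that had enough variation between libraries to be tested (exact stratified test, Benjamini-Hochberg adjusted p under 0.05). That is 19.0% and 7.94% of the tested member regions, beside 15.3% higher and 8.39% lower among all 17547 regions tested, so the shares at the loci were near the background. The gains were at Runx1 (4 of 13 tested regions), Irf8 (3 of 9), Mef2d (2 of 8), Spi1 (1 of 4), Cebpa (1 of 6) and Cebpb (1 of 4). The losses were at Mef2d (3), Mef2a (1) and Mef2c (1), and Sall1 had neither among its 5 tested regions. By rank (limma), 3 of the 25 member regions nearest to another gene rose and 1, Cebpa 2, fell. By presence, all 17 called regions lay nearest to the member itself. The 9 tested regions nearest to another gene held no call by presence. They are few beside a background of 23.7% called in either direction, so a difference between these sets is not shown. The lower count was 3 when CON_LPS replicate 1, 4, 5 or 6, MIA_LPS replicate 1, 2, 3 or 4, MIA_SAL replicate 1 or CON_SAL replicate 4 or 5 was left out. It was 0 with all deposited peaks, while the higher count was 4 with the best 16974 peaks of each list. With 1 library for each identity number in a group (19 libraries, an alternative chosen after seeing the data), 7 higher and 1 lower were called: Irf8 8, Irf8 11, Irf8 14, Runx1 4, Runx1 5, Runx1 22 and Mef2d 7, and the loss at Mef2a 12. Of the others, Mef2d 6 could not be tested then, and Spi1 10, Runx1 16, Mef2d 9, Mef2d 10, Mef2d 11, Mef2c 7, Cebpa 8 and Cebpb 14 had exact adjusted p-values of 0.0732 to 0.106.

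By place, 1 of 3 tested regions within 1 kb of a gene end was gained and 0 lost, beside 5.81% and 5.11% of all such regions. Inside gene bodies 7 of 27 were gained and 4 lost, beside 16.2% and 9.39%, and between genes 4 of 33 were gained and 1 lost, beside 18.5% and 8.49%. Regions open in all 23 libraries, which presence cannot test, made up 45 of the 151 (29.8%), beside 33.8% of all regions. Of these 45, 4 ranked higher and 7 lower after LPS in limma (8.89% and 15.6%), beside 6.9% and 8.29% of all such regions. The 4 were Irf8 6, Mef2a 16, Cebpb 2 and Cebpb 10, and the 7 were Runx1 23, Runx1 31, Mef2a 10, Mef2c 9, Sall1 5, Sall1 6 and Cebpa 3.

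The rank of the peaks gave more calls in both directions. In limma over all 49124 regions, 23 member regions ranked higher and 17 lower after LPS (15.2% and 11.3%), beside 10.5% higher and 9.47% lower among all regions. Without CON_SAL replicate 3 the higher count was 15, as it was with 1 library for each identity number in a group, where the calls given below for Sall1 6 and Mef2c 12 were lost (limma adjusted p = 0.0554 and 0.065). Ranked by fold enrichment instead of −log10 p, 15 were higher (9.93%, background 8.97%) and 9 lower (5.96%, background 7.0%), and all of these were called by −log10 p too. With the best 16974 peaks of each list, 5 were higher and 9 lower by −log10 p, and the rank calls given below for Irf8 8, Irf8 11, Irf8 13, Irf8 14, Runx1 4, Runx1 22, Mef2d 7, Mef2d 9, Mef2a 12, Mef2c 12 and Sall1 2 were lost. The median difference over the 151 regions was 0.16 points, against −0.6 points over all regions, and single regions ran from −49.3 to 63.7 points. The plot of all member regions shows how gains and losses were spread over the genes.

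**Figure D1:**
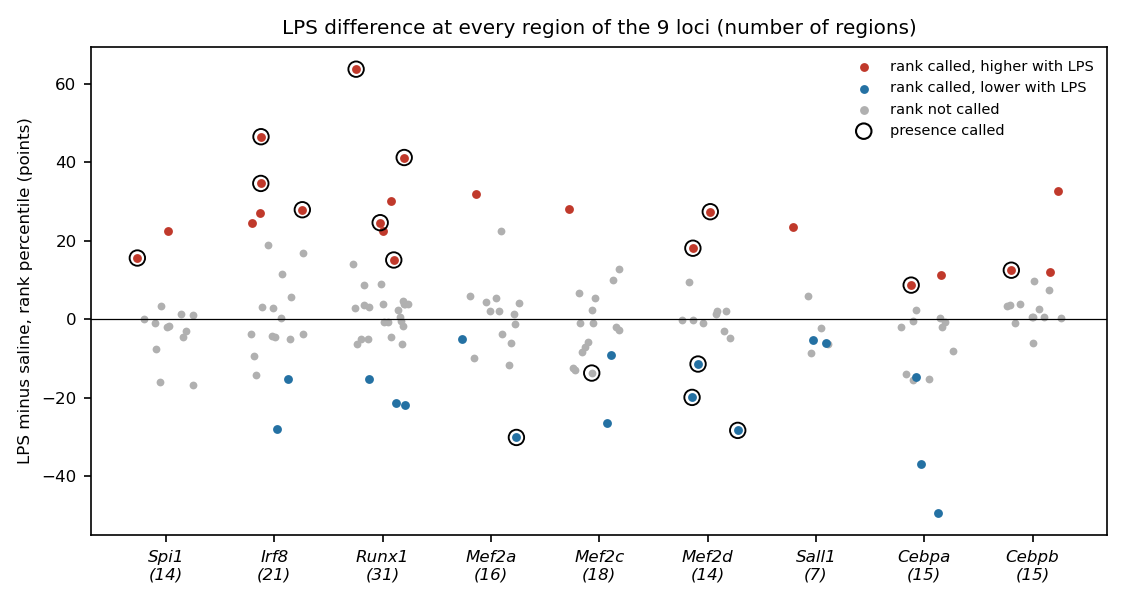
LPS minus saline difference in rank percentile (points) at each of the 151 regions, by gene, with the number of regions in brackets; red and blue points were called by limma, grey ones not, and black rings mark calls by presence. The largest rise is at Runx1 (63.7 points) and the largest fall at Cebpa (−49.3 points).

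Spi1, the gene of PU.1, had no call at its end region or at Spi1 11. Its end region Spi1 7 (chr2:91082824-91083324) had ranks of 62.1 to 75.8 in LPS and 61.4 to 80.8 in saline libraries and was not called (−2.9 ± 2.29 points, SE, limma adjusted p = 0.402). Spi1 11, inside the gene, ranked 87.6 in LPS and 88.6 in saline libraries at the median and was not called either. The best peak at the Spi1 locus was stronger, with median ranks of 94.86 in LPS and 95.91 in saline libraries. Spi1 10 (chr2:91089046-91089546, gene body) had a peak in 7 LPS and 0 saline libraries (exact adjusted p = 0.027), and lost the call without MIA_LPS replicate 1, 2 or 4 (exact adjusted p of at most 0.0529). Spi1 12, also in the gene body, rose by 22.6 ± 6.1 points (SE, limma adjusted p = 0.0106) with a peak in 11 LPS and 7 saline libraries. Spi1 8 had medians of 40.2 in LPS and 59.9 in saline libraries and missed the threshold (limma adjusted p = 0.0579), which it passed without CON_LPS replicate 1, 2, 6 or 7 (limma adjusted p of at least 0.0314).

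Irf8, the interferon regulatory factor that partners PU.1, gained 3 regions after LPS and lost none by presence. Its promoter (Irf8 9, chr8:120736042-120736542) was open in every library, with ranks of 77.8 to 92.1 (median 88.2) in 12 LPS libraries and 66.8 to 90.2 (median 86.3) in 11 saline libraries. These ranges overlapped, and the promoter passed no test (2.8 ± 2.33 points, SE, limma adjusted p = 0.429).

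The gains at Irf8 lay around the promoter. Irf8 8 (chr8:120725185-120725685, between genes, 10923 bp upstream of the start) had a peak in all 12 LPS libraries and in 1 of 11 saline libraries, a MIA_SAL one. Ranks were 8.1 to 75.4 (median 44.1) in LPS and 0 to 7.6 (median 0) in saline libraries, so every LPS library was above every saline library. The deposited fold of the peak was 3.65 to 11.4 (median 7.08) in LPS libraries and 3.48 in the saline library that had it. The rise in presence had an adjusted p of 0.000537 (exact stratified test), and the rise in rank was 46.5 ± 6.34 points (SE, limma adjusted p = 1.23e-05). Presence was not called among peaks with a −log10 q of at least 5 (exact adjusted p = 0.0967).

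Irf8 11 (chr8:120743837-120744337, gene body) also had a peak in 12 LPS libraries and 1 saline library, again a MIA_SAL one (exact adjusted p = 0.000537). LPS ranks of 13.9 to 48.2 (median 28.8) stood against 0 to 32.9 (median 0) in saline libraries, and the ranges overlapped through that 1 library. The rise was 27.9 ± 4.25 points (SE, limma adjusted p = 4.8e-05), and presence missed the threshold in lists shortened by fold (exact adjusted p = 0.114). Irf8 14 (chr8:120759820-120760320, between genes, 3376 bp beyond the far end of the gene) had a peak in 12 LPS and 3 saline libraries (exact adjusted p = 0.00471). Its ranks were 18.5 to 71.0 (median 39.4) after LPS and 0 to 21.2 (median 0) after saline, a rise of 34.6 ± 5.29 points (SE, limma adjusted p = 5.18e-05). Presence at Irf8 14 was called in every alternative in which it could be tested.

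A region inside the gene went the other way by rank. Irf8 13 (chr8:120750554-120751054) had a peak in 7 LPS and 11 saline libraries, with ranks of 0 to 47.4 (median 6.2) and 23.4 to 59.1 (median 42.8), which overlapped. Its fall was −28.0 ± 6.65 points (SE, limma adjusted p = 0.00414), and with the best 16974 peaks it was not called (limma adjusted p = 0.298). Irf8 6, 20175 bp upstream, was open in all 23 libraries and rose by 27.0 ± 5.21 points (SE, limma adjusted p = 0.000648). The 2 farthest constantly open regions, Irf8 19 and Irf8 20, had medians of 56.8 and 55.9 in LPS and 40.4 and 52.8 in saline libraries and were not called.

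Runx1, the runt-domain factor active in blood and microglial progenitors, gained 4 regions by presence, all inside the gene body. Runx1 5 (chr16:92620634-92621134, 19418 bp inside the downstream end) had the largest rise of all 151 member regions. It had a peak in 12 of 12 LPS libraries and in 2 of 11 saline libraries, 1 of each offspring group (exact adjusted p = 0.00199). Ranks were 36.0 to 86.1 (median 64.0) in LPS and 0 to 31.9 (median 0) in saline libraries, with no overlap, a rise of 63.7 ± 4.97 points (SE, limma adjusted p = 3.83e-09). The deposited fold was 5.43 to 14.9 (median 7.54) in LPS libraries, against 3.89 and 4.09 in the 2 saline libraries that had it. Both calls held in every alternative in which the region could be tested.

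Runx1 22 (chr16:92823521-92824021), 2303 bp inside the gene from the distal start, had a peak in 11 of 12 LPS libraries and in 0 of 11 saline libraries (exact adjusted p = 0.000547). The LPS library without it was MIA_LPS replicate 3, which has the shortest deposited list. Ranks reached 59.0 (median 43.2) after LPS, and the rise was 41.2 ± 5.61 points (SE, limma adjusted p = 1.21e-05). Runx1 4 (chr16:92612394-92612894) had a peak in 9 LPS and 0 saline libraries (exact adjusted p = 0.00471), with LPS ranks of 0 to 57.5 (median 26.2). It rose by 24.6 ± 5.56 points (SE, limma adjusted p = 0.00279). Runx1 16 (chr16:92714697-92715197) had a peak in 7 LPS and 0 saline libraries (exact adjusted p = 0.027), with LPS ranks of 0 to 46.2. That call was lost without MIA_LPS replicate 1, 2 or 5 (exact adjusted p of at most 0.054).

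The promoters of Runx1 were unlike in their ranks. The distal promoter region (Runx1 23, chr16:92825968-92826468) was open in all 23 libraries, at 11.9 to 48.7 (median 34.8) in LPS and 28.6 to 76.0 (median 54.3) in saline libraries. It fell by 21.8 points, with an SE of 4.84 (limma adjusted p = 0.00235), although the ranges overlapped. With all deposited peaks the fall was not called (limma adjusted p = 0.0594). In the 300 base window around the distal start alone, 10 of 12 LPS and 9 of 11 saline libraries had a peak over at least 150 bases. The proximal promoter (Runx1 12, chr16:92697152-92697652) ranked 83.7 in LPS and 81.1 in saline libraries at the median and was not called (3.8 points, limma adjusted p = 0.284). Whether the promoters differed in their response was not tested. Runx1 19 and Runx1 20, some 25035 and 24249 bp inside the gene, were open in 12 LPS and 10 saline libraries each and were not called (limma adjusted p = 0.977 and 0.651).

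**Figure D2:**
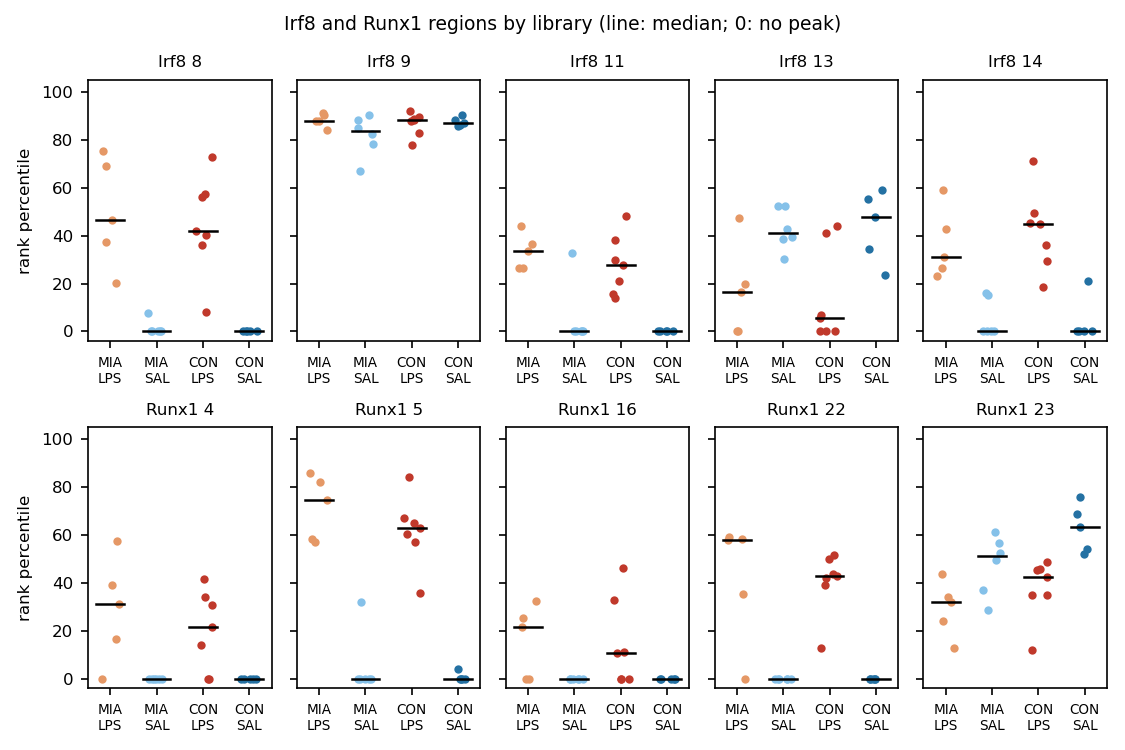
Rank percentile of −log10 p (0 to 100, 0 for no peak) at 5 regions each of Irf8 and Runx1, one point per library in the groups MIA_LPS (n = 5), MIA_SAL (n = 6), CON_LPS (n = 7) and CON_SAL (n = 5), with the median as a line. LPS libraries lie above saline libraries at Irf8 8 and Runx1 5, while the Irf8 promoter (Irf8 9) stays between 66.8 and 92.1 throughout.

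**Figure D3:**
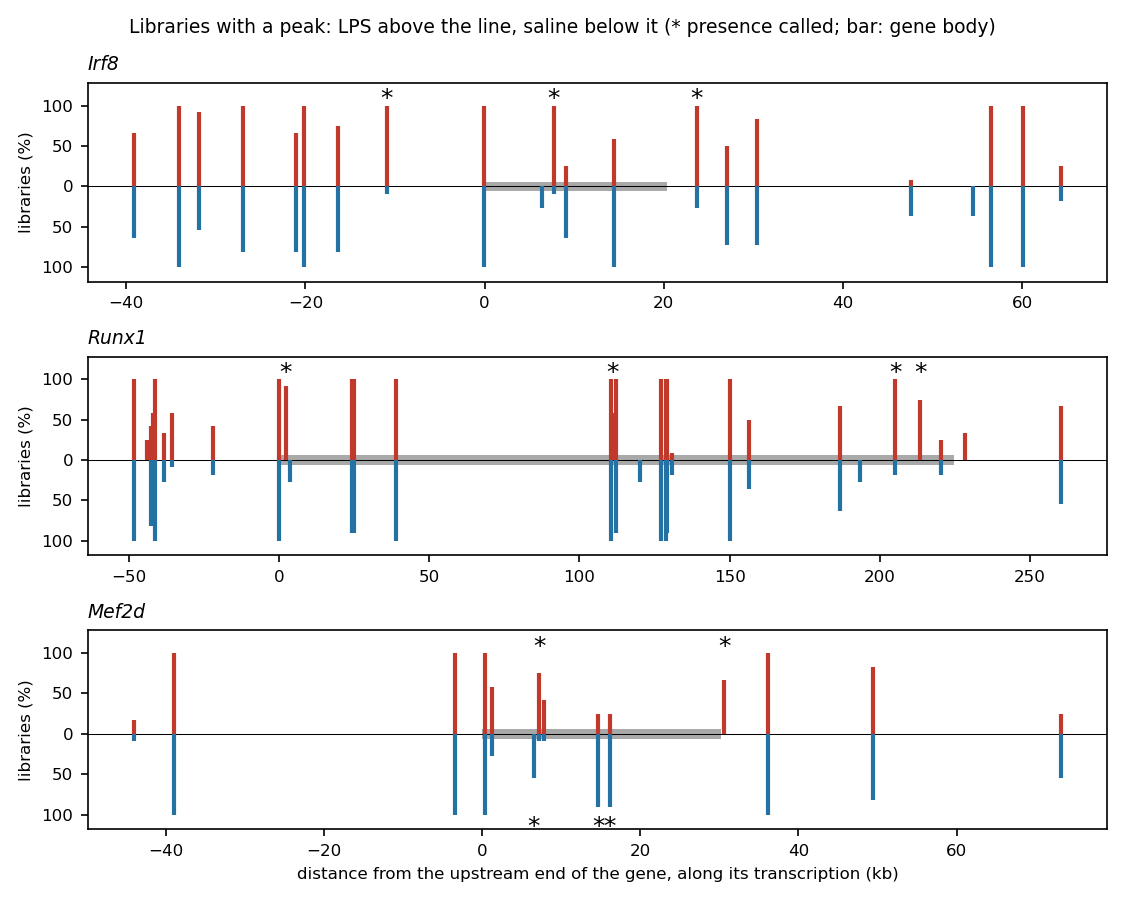
Share of libraries (%) with a peak in each region of Irf8, Runx1 and Mef2d, LPS (n = 12) upward in red and saline (n = 11) downward in blue, by distance in kb from the upstream end of the gene along its transcription; grey bars are gene bodies and asterisks mark regions called by presence. By presence Mef2d carries 2 gains and 3 losses, while Irf8 carries 3 gains and Runx1 4 gains and neither carries a loss.

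By presence, the 5 losses lay at the MEF2 paralogs. They were 3 of 8 tested regions at Mef2d, 1 of 8 at Mef2a and 1 of 6 at Mef2c. Among all regions tested, 8.39% were lower, and with all deposited peaks 0 member regions were. By rank, falls were also called at Runx1 (3), Cebpa (3), Irf8 (2) and Sall1 (2). Mef2d was the member with calls in both directions, 2 gains and 3 losses among 8 tested regions, with its promoter (Mef2d 4, chr3:88142060-88142560) open in all libraries at medians of 90.0 in LPS and 88.8 in saline libraries (1.3 ± 1.48 points, SE, limma adjusted p = 0.596). Mef2d 9 (chr3:88156415-88156915, gene body) had a peak in 3 of 12 LPS and 10 of 11 saline libraries (exact adjusted p = 0.0205). Its ranks were 0 to 15.8 (median 0) after LPS and 0 to 53.2 (median 37.6) after saline, a fall of −28.3 ± 4.41 points (SE, limma adjusted p = 6.52e-05). Mef2d 10 (chr3:88157833-88158333, gene body) likewise had 3 LPS and 10 saline libraries (exact adjusted p = 0.0196), with ranks of 0 to 43.4 (median 0) and 0 to 48.8 (median 21.6). Both regions lost the call among peaks with a −log10 q of at least 5 (exact adjusted p = 0.0814 for Mef2d 9 and 0.199 for Mef2d 10), and Mef2d 9 also with all deposited peaks (exact adjusted p = 0.441).

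Neighbouring regions of Mef2d moved in opposite directions. Mef2d 6 (chr3:88148255-88148755) had a peak in 0 of 12 LPS and 6 of 11 saline libraries (exact adjusted p = 0.0495), while Mef2d 7 (chr3:88148949-88149449), the next region, had one in 9 LPS and 1 saline libraries (exact adjusted p = 0.0196). Ranks at Mef2d 7 were 0 to 66.6 (median 26.2) in LPS and 0 to 1.3 (median 0) in saline libraries, a rise of 27.4 ± 4.98 points (SE, limma adjusted p = 0.00035). Mef2d 6 lost its call without CON_LPS replicate 1, 4, 5 or 6, any of MIA_LPS replicates 1 to 5, or CON_SAL replicate 4 or 5 (exact adjusted p of at most 0.101), and with all deposited peaks (0.706). The other gain, Mef2d 11 (chr3:88172344-88172844), lay 503 bp beyond the downstream end and had a peak in 8 LPS and 0 saline libraries (exact adjusted p = 0.0131).

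Mef2a lost Mef2a 12 (chr7:67380678-67381178, between genes, 4472 bp upstream of the gene), which had a peak in 2 LPS and 9 saline libraries (exact adjusted p = 0.0216). Its ranks were 0 to 5.9 (median 0) after LPS and 0 to 56.8 (median 27.2) after saline, and the fall was −30.1 ± 5.77 points (SE, limma adjusted p = 0.000607). With all deposited peaks presence was no longer called (exact adjusted p = 0.314). At the outer edge of the locus Mef2a 16 (chr7:67425593-67426093, 49387 bp from the gene) was open in every library, with ranks of 76.4 to 90.6 (median 82.3) after LPS and 38.5 to 67.0 (median 50.8) after saline, which did not overlap. The rise of 31.9 ± 3.11 points (SE, limma adjusted p = 1.2e-07) held in every alternative. The promoter with 2 PU.1 matches (Mef2a 10) was open in all libraries, at medians of 85.1 in LPS and 90.4 in saline libraries, and fell by 5.1 points (limma adjusted p = 0.0251). Mef2a 2 (chr7:67222273-67222773) lay at an end of Lysmd4, 21 bp away, and was not called (limma adjusted p = 0.317).

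Mef2c, which restrains inflammatory responses of microglia in mice, had its strongest region inside the gene. Mef2c 9 (chr13:83571907-83572407), just upstream of the third listed start, was open in every library with ranks of 71.1 to 88.3 (median 80.4) after LPS and 83.3 to 93.6 (median 90.0) after saline. It fell by 9.2 points, SE 2.08 (limma adjusted p = 0.00265), with overlapping ranges, and was called in every alternative. Mef2c 2, next to the second listed start, was open in all libraries, but the 300 base window around that start itself had a peak in 0 LPS and 1 saline libraries. The window around the third start likewise had one in 0 LPS and 1 saline libraries, and Mef2c 10 beside it in 2 LPS and 2 saline libraries. Neither Mef2c 2 nor Mef2c 10 was called. Mef2c 12 (chr13:83585256-83585756) rose by 28.2 ± 8.17 points (SE, limma adjusted p = 0.0171), with a median of 58.8 in LPS and 27.9 in saline libraries, but was not called with all deposited peaks (limma adjusted p = 0.101) or the best 16974 (0.0623). Mef2c 7 (chr13:83545721-83546221) had a peak in 1 LPS and 7 saline libraries (exact adjusted p = 0.048). Leaving out any of CON_LPS replicates 1 to 7, MIA_LPS replicates 1 to 4, CON_SAL replicate 1, 2, 4 or 5 or MIA_SAL replicate 1, 2 or 6 ended that call (exact adjusted p of at most 0.0984).

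**Figure D4:**
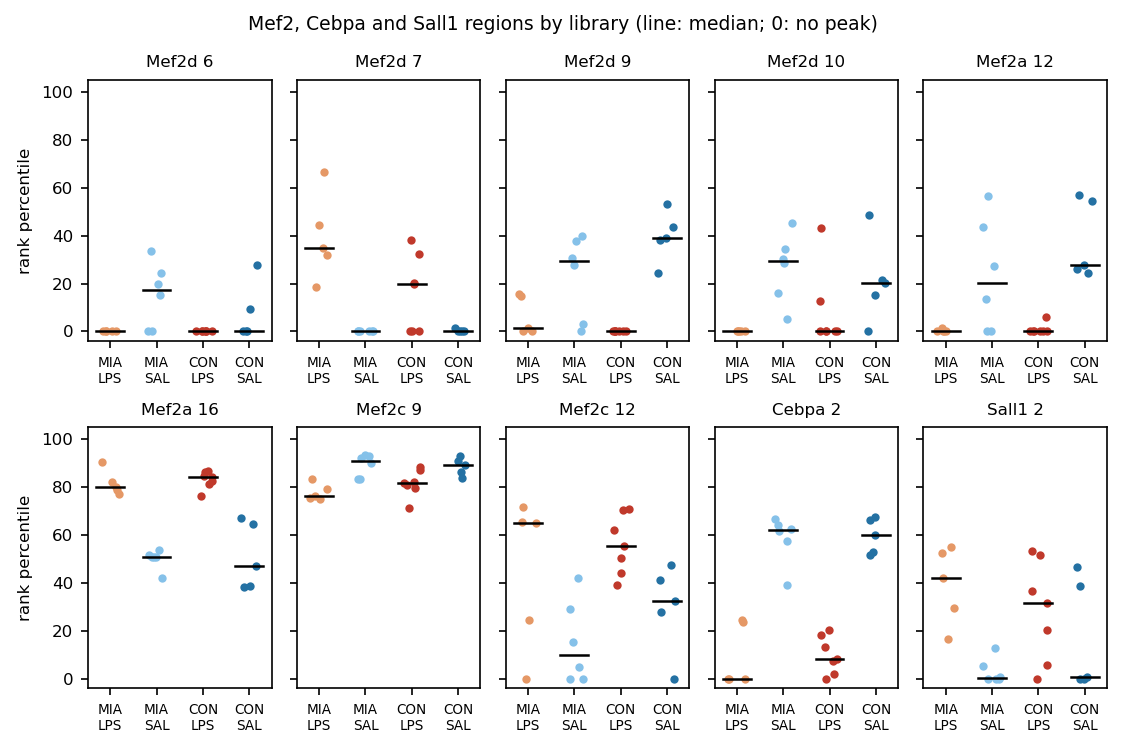
Rank percentile of −log10 p (0 to 100, 0 for no peak) at regions of Mef2d, Mef2a, Mef2c, Cebpa and Sall1, one point per library in the same 4 groups, with the median as a line. LPS libraries lie above saline libraries at Mef2a 16 and below them at Cebpa 2, with no overlap at either.

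Cebpa, which encodes the myeloid factor C/EBPα, had the largest fall of the 151 regions. Cebpa 2 (chr7:35086486-35086986, between genes, 32557 bp upstream of the start and nearest to the predicted gene Gm45095) had a peak in 8 of 12 LPS and 11 of 11 saline libraries. Ranks were 0 to 24.4 (median 7.8) in LPS and 39.0 to 67.5 (median 61.8) in saline libraries, with no overlap. The fall was −49.3 ± 4.0 points (SE, limma adjusted p = 6.94e-09) and held in every alternative. Closer to the gene, Cebpa 3, 20246 bp upstream, fell by 14.8 points with an SE of 3.31 (limma adjusted p = 0.00258), and was open in every library. The promoter, Cebpa 5 (chr7:35118956-35119456), ranked 87.3 to 94.6 in LPS and 83.9 to 93.5 in saline libraries and was not called (2.4 ± 1.44 points, SE, limma adjusted p = 0.265). Cebpa 8 (chr7:35127062-35127562) had a peak in 5 LPS and 0 saline libraries (exact adjusted p = 0.0414), 4 of them MIA_LPS. Leaving out any of MIA_SAL replicates 1 to 6 ended that call (exact adjusted p of at most 0.0886), as did using all deposited peaks (0.187).

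Cebpb, which encodes C/EBPβ, gained 1 region far from the gene. Cebpb 14 (chr2:167723764-167724264, 33582 bp beyond the downstream end) had a peak in 8 LPS and 0 saline libraries (exact adjusted p = 0.0131), at ranks of up to 40.8, a call that held with each library left out. The promoter, Cebpb 8 (chr2:167688655-167689155), had 63.2 to 84.9 (median 81.9) in LPS and 67.9 to 80.7 (median 75.7) in saline libraries and was not called (3.6 ± 2.37 points, SE, limma adjusted p = 0.307). Cebpb 2, open in all libraries 39497 bp upstream and inside the gene Tmem189, rose by 32.6 ± 3.14 points (SE, limma adjusted p = 9.89e-08). Cebpb 9, at the end of the gene, had a peak in 0 LPS and 5 saline libraries and was not called (exact adjusted p = 0.0962).

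Sall1 showed small falls at its starts. Sall1 5 (chr8:89042567-89043067) and Sall1 6 (chr8:89043423-89043923) lie at the third and second listed starts and had the same peak, judged by equal ranks, fold and −log10 p, in 16 of 23 libraries. Sall1 6 ranked 77.3 to 88.3 (median 83.6) in LPS and 83.9 to 92.2 (median 88.2) in saline libraries, a fall of −5.2 ± 1.56 points (SE, limma adjusted p = 0.0216). Sall1 5 fell by 6.0 points, SE 1.73 (limma adjusted p = 0.0158). Ranked by fold instead, 0 regions of Sall1 were called lower. Neither fall was called with all deposited peaks, or without the 6 libraries of identity numbers 01 to 03 (limma adjusted p = 0.083 for Sall1 6 and 0.0583 for Sall1 5). Sall1 2 (chr8:89021113-89021613), 5879 bp beyond the downstream end, had a peak in 11 LPS and 6 saline libraries and rose by 23.6 ± 7.18 points (SE, limma adjusted p = 0.0225), but was not called with all deposited peaks (limma adjusted p = 0.0718) or the best 16974 (0.336).

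**Figure D5:**
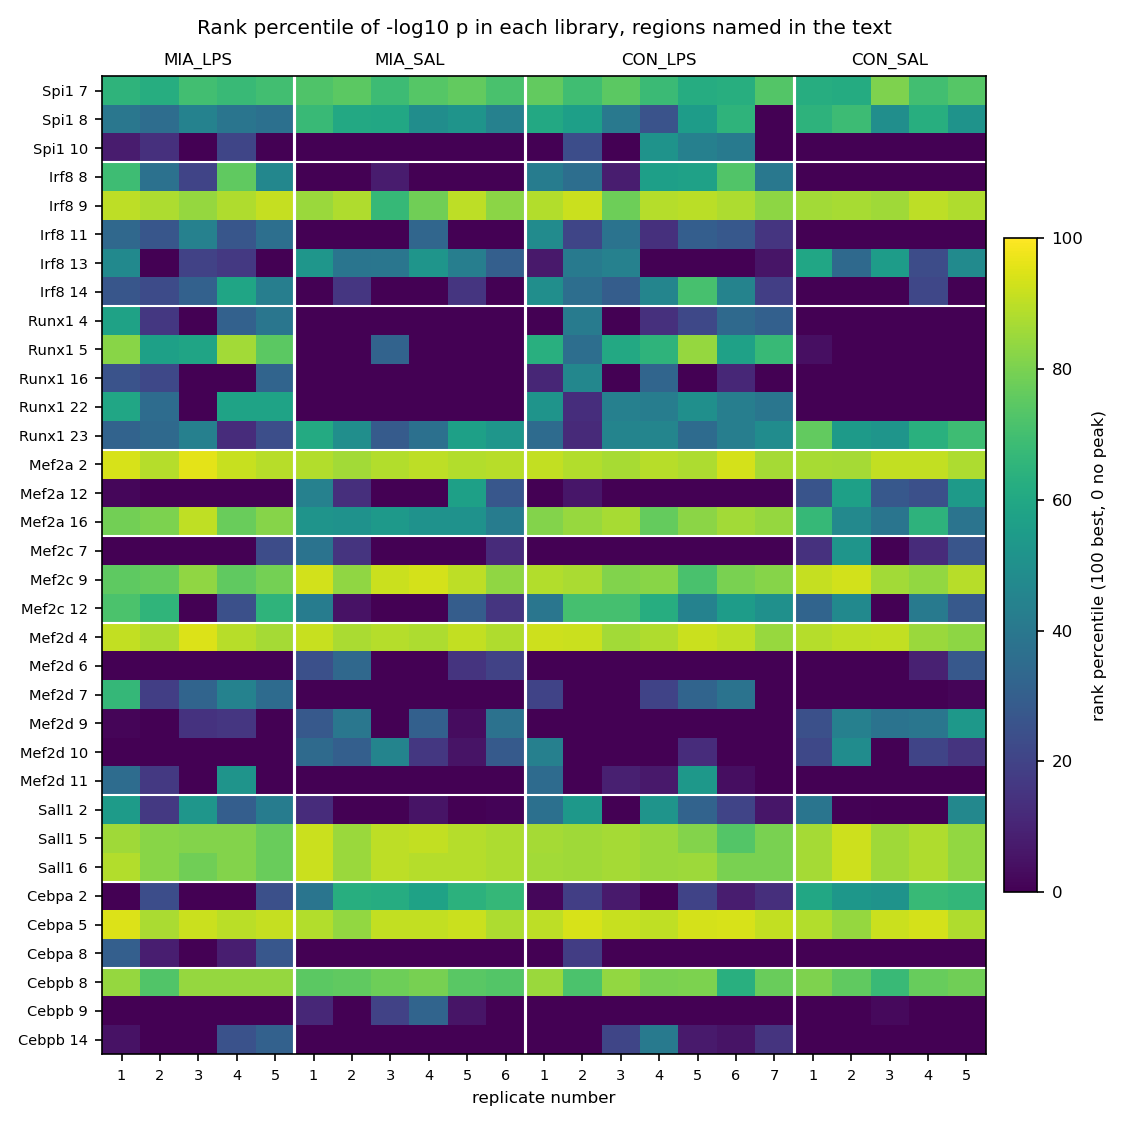
Rank percentile of −log10 p (colour, 100 best and 0 no peak) at the regions named by rule in each of the 23 libraries, in the order MIA_LPS, MIA_SAL, CON_LPS, CON_SAL with replicate numbers below. Promoter regions such as Irf8 9, Mef2d 4 and Cebpa 5 are high in every column. Irf8 8 and Runx1 5 part LPS from saline columns in both offspring groups, and Runx1 22 does so but for a MIA_LPS library without a peak.

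Prenatal history was compared at matched treatment. Of 49 member regions tested between MIA and CON by presence, 0 were called, beside 0 called (0.0%) among all 15264 tested. An unadjusted p under 0.05 (exact stratified test) was found for 0 of the 49 and for 410 of the 15264. The limma fit of ranks called 0 of 151 member regions (limma, lowest adjusted p 0.96), with 5 (3.31%) at an unadjusted p under 0.05, beside 5.0% among all regions and 1 call in 49124 (0.00204%). Ranked by fold, it called 0 of 151 as well (0.00407% of all). A p that misses the threshold does not show that the groups are alike.

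The response to LPS was then set against prenatal history. All 17 regions called over both groups moved in the same direction in MIA and in CON offspring, as the choice of regions favours. The difference in the share of libraries with a peak was larger in MIA for 8 and larger in CON for 9. Irf8 8 had a peak in 5 of 5 MIA_LPS and 1 of 6 MIA_SAL libraries, and in 7 of 7 CON_LPS and 0 of 5 CON_SAL libraries. Mef2d 9 had one in 3 of 5 MIA_LPS, 5 of 6 MIA_SAL, 0 of 7 CON_LPS and 5 of 5 CON_SAL libraries. Mef2d 7 was present in 5 of 5 MIA_LPS, 0 of 6 MIA_SAL, 4 of 7 CON_LPS and 1 of 5 CON_SAL libraries, and Mef2d 10 in 0 of 5 MIA_LPS, 6 of 6 MIA_SAL, 3 of 7 CON_LPS and 4 of 5 CON_SAL libraries. No member region passed the test of the difference between both responses (limma interaction, 0 of 151 called, lowest adjusted p 0.988), and 6 (3.97%) had an unadjusted p under 0.05, beside 4.45% among all regions and 1 call (0.00204%). By rank of fold 0 of 151 were called, beside 0.00407% of all.

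Within MIA offspring alone, 17 member regions could be tested by presence, with 1 gain (Mef2d 7) and 1 loss (Mef2d 10), both at a Fisher's exact adjusted p of 0.014. The background was 13.0% higher and 2.49% lower of 5794 regions. Within CON offspring, 23 could be tested, with gains at Irf8 8, Irf8 11 and Runx1 22 and a loss at Mef2d 9, each at a Fisher's exact adjusted p of 0.0101, beside 9.92% higher and 2.52% lower of 5271. These lists do not show a difference between the offspring groups, which the interaction above tests. The MIA gains numbered 5 without MIA_LPS replicate 3, 3 without MIA_SAL replicate 3 and 2 without MIA_SAL replicate 4, and the CON losses 2 without CON_LPS replicate 2 or CON_SAL replicate 3. Without the 6 libraries of identity numbers 01 to 03, MIA offspring had 0 calls and CON offspring 3 gains and 2 losses.

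The number of peaks at each locus was counted in the lists of equal length, with no test. Runx1 held 18 to 24 peaks (median 20.5) in LPS and 14 to 20 (median 17) in saline libraries. Irf8 held 13 to 19 (median 16.5) and 9 to 20 (median 16), and Mef2c 11 to 15 (median 13) and 11 to 17 (median 13), in the same order of treatments. Over the 9 loci the median was 105.5 peaks in LPS and 102 in saline libraries. The best peak at Mef2c had a rank of 75.17 to 88.28 (median 80.79) in LPS libraries and 83.27 to 93.56 (median 90.04) in saline libraries.

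Paralogs and partners of the members were called about as often as other regions. Of 22 such genes, 21 had a region within 50 kb, and 98 regions were tested, with 14 higher (14.3%) and 8 lower (8.16%) after LPS by presence, near the background of 15.3% and 8.39%. Gains were near 8 genes and losses near 6, and 11 of the 22 genes had neither, among them Sall4, which had no region. This list was not kept apart from the members, and Cebpg lies beside Cebpa. Regions within 50 kb of both were counted in both, among them the largest fall of the member regions (−49.3 points). At Irf2, a paralog of Irf8 that restrains interferon responses, 2 regions had a peak in 12 of 12 LPS and 0 of 11 saline libraries (exact adjusted p = 0.000175), and 1 of them rose by 68.4 ± 2.09 points (SE, limma adjusted p = 1.26e-15). A further region at Irf2 was gained (8 LPS and 0 saline libraries, exact adjusted p = 0.0119) and another lost (1 LPS and 7 saline libraries, exact adjusted p = 0.048). A region within 50 kb of Runx2, inside Supt3, and one in Smad3, a mediator of TGF-β signals, had a peak in 12 LPS and 1 saline libraries each (exact adjusted p = 0.000537). Batf3, a partner of Irf8 in dendritic cells, was near 2 losses.

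Regions near 18 genes known as targets of these factors in microglia were counted in the same way. Of 80 tested, 16 were higher and 10 lower (12.5%) after LPS, beside 15.3% higher and 8.39% lower among all regions tested. Of these genes 9 had a gain, 6 a loss and 6 neither. Trem2, a lipid receptor of microglia, had a region 3755 bp away with a peak in 12 LPS and 0 saline libraries (exact adjusted p = 0.000175), and Cd33 and Itgam had 3 gains each. Cd33 also had a loss inside the neighbouring gene Zfp658, in a region with a peak in 4 LPS and 10 saline libraries (exact adjusted p = 0.048). Gpr34, a receptor of resting microglia, had 5 losses and no gain, among them a region with a peak in 0 LPS and 9 saline libraries (exact adjusted p = 0.00199). P2ry12 had 1 loss (0 LPS and 7 saline libraries, exact adjusted p = 0.0144).

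Regions elsewhere followed the extreme member regions closely. Over the 23 libraries the rank of Runx1 5 was matched best by regions near Arhgef37 (Pearson r = 0.97), Creg2 (0.963) and Myl10 (0.961), and that of Cebpa 2 by regions near 1700025G04Rik (0.936), Trabd2b (0.934) and Uba7 (0.932). These r values share the 12 against 11 split by treatment and were chosen as the highest of all regions, so they describe likeness alone.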

How the data were processed

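ATAC-seq peak lists of 23 libraries were used, 1 list each. The submitters' processing notes name cutadapt and Bowtie2, Picard and SAMtools, MACS2 and DiffBind, with mm10 and GRCm38 as builds; versions and settings are not stated there. The deposited lists give, as the authors' values for each peak, a fold enrichment (a ratio) and the −log10 of p and of q, whose lowest deposited value was 1.301. These values were used only to rank, filter and describe peaks within a list, and the deposited score was left aside.

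Peaks on chromosomes 1 to 19, X and Y were kept, and the lists made equally long. Of 74287 windows on summits, 49124 had a peak in at least 3 libraries; the loci held 213 and 151. A peak counted in a region when either was covered by the other over 50% of its length or more. Presence was tested with a two-sided exact conditional test stratified by the other factor, and with Fisher's exact test within MIA or CON offspring, for regions able to reach p = 0.01. Rank percentiles were fitted with limma 3.58.1 (R 4.3.3) on 4 group means. Benjamini-Hochberg adjustment ran over all regions tested, with calls under 0.05. Both tests were checked on simulated data with few changed regions. There limma often missed the smaller simulated difference. The presence test missed its smaller one in every changed region, although that was a large difference in the share of libraries. In the data 23.7% of the tested regions were called by presence, so the adjustment was less strict than in the simulation. The share missed there does not carry over to these data. A region not called may still differ, even by a large share. Gene positions, starts and promoters came from RefSeq for GRCm38.p6, where Spi1 has no listed promoter.

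At each gene the text names the best ranked region within 1 kb of a gene end (or, failing that, at the locus), each region called by presence, and the region with the smallest limma p in a direction without such a call. Further regions, and genes of the lists, were named after their values were seen. The members and lists were chosen with earlier results of these data known. Alternatives are given in the closing section. Python 3.11.15, numpy 2.4.6, pandas 2.3.3, scipy 1.17.1 and matplotlib 3.10.9 were used.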

Additional observations from a re-analysis of the deposited data

Results flagged for a closer look

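A library far from the others of its group was looked for in 104 groups of values (ranks at the regions called by presence, and peak numbers per locus), and 13 were found. Chance gives about 1 in 20 where values are untied, a rate that does not hold here, since any peak meets the criterion where the rest of the group is at 0. That was so for 10 of the 13: Mef2d 7 in CON_SAL replicate 5 (rank percentile 1.3), Mef2a 12 in MIA_LPS replicate 1 (1.6) and CON_LPS replicate 2 (5.9), Irf8 8 in MIA_SAL replicate 3 (7.6), Irf8 11 in MIA_SAL replicate 4 (32.9), Irf8 14 in CON_SAL replicate 4 (21.2), Mef2c 7 in MIA_LPS replicate 5 (23.4), Runx1 5 in MIA_SAL replicate 3 (31.9) and CON_SAL replicate 1 (4.1), and Cebpa 8 in CON_LPS replicate 2 (18.0). At Mef2d 10, CON_LPS replicate 1 had a rank percentile of 43.4, far above the rest. Runx1 22 had 12.9 in CON_LPS replicate 2, the lowest of that group. MIA_SAL replicate 6 had 13 peaks at Cebpa, more than the other MIA_SAL libraries.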

How the results depend on the processing

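With all deposited peaks, presence over both offspring groups gave 0 lower member regions, CON offspring 0 higher and 0 lower, MIA offspring 0 lower, and rank by −log10 p 8 lower; the loci then held a median of 143 peaks in LPS and 130 in saline libraries. With the best 16974 peaks of each list, presence gave 4 higher and 3 lower, CON 0 higher and 2 lower, MIA 0 lower, rank by −log10 p 5 higher and 9 lower, and rank by fold 5 higher and 3 lower. Among peaks with a −log10 q of at least 5 there were 0 lower over both groups, 1 higher and 0 lower in CON and 0 lower in MIA offspring. Lists shortened by fold gave 7 higher and 2 lower over both groups, 1 higher in CON, and 0 higher and 0 lower in MIA offspring. Requiring the summit inside the region gave 3 lower over both groups. No filter on the attainable p gave 0 lower over both groups, and 0 higher and 0 lower in CON and in MIA offspring. A peak in at least 12 libraries left 13 higher by rank of −log10 p. Without identity numbers 01 to 03, CON had 2 lower and MIA offspring 0 higher and 0 lower. Alternatives chosen after seeing the data took up the shared identity numbers. With 1 library for each number in a group (19 libraries), presence gave 7 higher and 1 lower over both groups, 2 lower in CON and 2 higher in MIA offspring, and rank by −log10 p 15 higher. With the number as a random effect in limma (correlation 0.132 for −log10 p and 0.189 for fold), rank by −log10 p gave 21 higher and 19 lower and rank by fold 17 higher and 9 lower.

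Leaving out each library in turn gave, by presence, 9 to 15 higher and 3 to 5 lower over both groups, 3 to 4 higher and 1 to 2 lower in CON, and 1 to 5 higher and 1 to 1 lower in MIA offspring. By rank of −log10 p it gave 15 to 21 higher and 14 to 20 lower, and by rank of fold 12 to 19 higher and 6 to 9 lower. MIA against CON, and the interaction, gave 0 calls in every alternative. With the replicate number as a block, presence gave 4 higher and 0 lower over both groups, and 0 higher and 0 lower in CON and in MIA offspring. Correlations of deviations do not settle whether the replicate numbers pair the libraries. Over 31 pairs of the same number the correlation was −0.18 to 0.185 (median 0.022), and 8 were above 0.1. In 166 other pairs the median was −0.005, and 14 were above 0.1. Of 23 libraries, 7 correlated best with a library of their own number in another group. Over 6 pairs of the same identity number in different groups the correlation was 0.029 to 0.156 (median 0.12), against a median of −0.005 in 191 other pairs, and 4 of the 6 were above 0.1.

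Of the 17 named presence calls 4 held in every alternative tested (Runx1 4, Runx1 5, Runx1 22 and Irf8 14) and 12 with each library left out. Of the 9 other alternatives, Irf8 14 could be tested in 5, Runx1 4 in 7, and Runx1 5 and Runx1 22 in 8 each. Irf8 8 and Irf8 11 could be tested in 8 as well, and each lost the call in 1. Of 25 named rank calls 4 held throughout (Runx1 5, Mef2a 16, Mef2c 9 and Cebpa 2) and 19 with each library left out, and 0 changed direction. The cause of these losses was not tested, beyond the removal of weaker peaks in shorter lists and the smaller number of libraries. Since no counts were used, depth cannot be separated from absence of a peak.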
